A study of Mus musculus with 5 samples.

Results

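Among midbrain cells of mice in which Foxj1 promoter activity was marked, 317 expressed the ependymal gene Ccdc153 at 1000 CPM or more (counts scaled to 1000000 reads per cell), and they differed widely in Fos. They were 317 of 547 midbrain cells and of 1473 cells in the whole series. Ranked by Fos CPM, they were split into 105 Fos-high cells, 107 Fos-middle cells and 105 Fos-low cells, and every gene other than Fos was then compared between the highest and the lowest group. Because Fos ordered the cells, what follows for the midbrain is a description of what accompanied Fos, with no test.

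The series concerns Sox9 and NFI transcription factors in dopamine progenitors and the maturation of ependymal cells. Single cells were sorted into wells and profiled with Smart-seq2, which reads full-length cDNA and carries no molecular identifiers. The cells described here carried FoxJ1CreERT2 R26TdT, a Cre recombinase driven from the Foxj1 promoter together with a tdTomato reporter at the Rosa26 locus. They came from tissue of the midbrain aqueduct of 3-month-old animals. Cells of the same line from the spinal cord, the lateral ventricle and the third ventricle serve below as samples that the ranking did not use. The whole line was represented by 10 animals, 5 females and 5 males, and the labels do not say which animal a well came from. The marking depends on the Foxj1 promoter, so the sample is a view of Foxj1-marked cells and not of all midbrain glia. With 1 sample per place, cells are not replicates, and neither p-values nor standard errors are given.

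Ependymal cells form the ciliated lining of the ventricles, and their beating cilia move cerebrospinal fluid. Fos encodes a subunit of AP-1, a dimeric transcription factor built from FOS, JUN and ATF proteins. Fos belongs to the immediate early genes, which many cells transcribe within minutes of a stimulus without first making new protein, through kinases that act on factors such as SRF and CREB. The same stimuli induce inhibitors, among them the phosphatase DUSP1 and the cytokine-signalling inhibitor SOCS3, that shut the response down again.

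The Fos-low cells reached up to 5.60 CPM of Fos and the Fos-middle cells began at 5.66 CPM. The Fos-middle cells ended at 1307 CPM and the Fos-high cells began at 1455 CPM, with 40165 CPM in the highest cell. Median Fos was 6451, 115 and 2.26 CPM in the Fos-high, Fos-middle and Fos-low cells, and 15 members had 0 reads of Fos. The cells just inside and just outside the Ccdc153 threshold stood at 1022 and 971 CPM. Median depth was 669980 reads in the Fos-high cells, 673176 in the Fos-middle cells and 742924 in the Fos-low cells, within a range of 125424 to 2536403 reads per member. The median number of detected genes was 5096, 4869 and 4692 in the same order, so more genes were detected in the Fos-high cells at a lower depth. After every cell was thinned to 125424 reads, 426 genes were at least 2-fold higher and 220 at least 2-fold lower in the Fos-high cells, beside 482 and 265 at full depth. Without the 2% of members with the most detected genes 500 were higher.

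Ependymal markers were at similar levels in both groups. All 8 that were listed were within 2-fold between Fos-high and Fos-low cells, with a median log2 ratio of -0.20. Ccdc153 is among the 8 and was used to pick the cells, so it cannot check the label. Likeness between the groups also does not show that each cell was ependymal, and Sspo-carrying cells are described below. Foxj1, the master regulator of motile cilia, had a median of 480 CPM per cell in the Fos-high cells, with a range of 0 to 1525 CPM. In the Fos-low cells its median was 530 CPM, with a range of 20.2 to 2218 CPM, so the groups overlapped over nearly their whole range. Ccdc153 itself had medians of 3235 and 3712 CPM. Of the cell types that a midbrain dissection could add, the microglial marker Cx3cr1 had 0 reads in all members. The summed level of the 8 listed microglial markers present in the table was 42.4 CPM over the Fos-high cells and 40.6 CPM over the Fos-low cells. The summed markers of neurons were at 10.8 and 26.8 CPM and those of endothelium at 6.39 and 6.50 CPM. Summed oligodendrocyte markers were at 680 and 886 CPM, and those of astrocytes at 1411 and 1577 CPM, in Fos-high and Fos-low cells respectively. Pericyte and smooth muscle markers summed to 39.6 CPM in the Fos-high cells, where a single cell reached 2574 CPM, and to 3.10 CPM in the Fos-low cells.

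Markers of some other types also differed at least 2-fold in their summed level, all with a median of 0 per cell in both groups. Those of oligodendrocyte precursors were at 4.80 CPM in the Fos-high cells, with up to 385 CPM in a cell, and at 0.086 CPM in the Fos-low cells. Neural stem cell markers were at 2.68 and 0.41 CPM. Fibroblast markers went the other way, at 9.02 and 25.2 CPM, as did those of border macrophages, at 0.11 and 1.87 CPM. The part of these low levels in the results was not tested.

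Markers of the subcommissural organ differed at a higher level than these. Sspo, which encodes SCO-spondin, the secreted glycoprotein of the subcommissural organ at the roof of the aqueduct, reached 100 CPM or more in 19 of 105 Fos-high cells. This is 18.1% of them, with an exact Clopper-Pearson 95% interval of 11.3% to 26.8% that covers counting error only. It did so in 12 of 107 Fos-middle cells (11.2%) and in 6 of 105 Fos-low cells (5.71%, interval 2.13% to 12.02%). At 1000 CPM or more the counts were 14, 2 and 0 cells. Summed with Spdef, the other of the 2 listed markers of that organ, it ran from 0 to 25477 CPM per Fos-high cell (median 3.82) and from 0 to 378 CPM per Fos-low cell (median 3.38). The 37 Sspo-carrying members had a median of 1461 CPM of Fos against 50.7 CPM in the other 280. Their Ccdc153 was lower, at a median of 2339 against 3583 CPM, while their depth was alike, at 690750 and 693464 reads. Among the 230 midbrain cells below the Ccdc153 threshold, 85.2% reached 100 CPM of Sspo. The main results below are therefore also given without the 37 Sspo-carrying members, ranking the remaining 280 cells afresh into groups of 93.

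**Figure D1:**
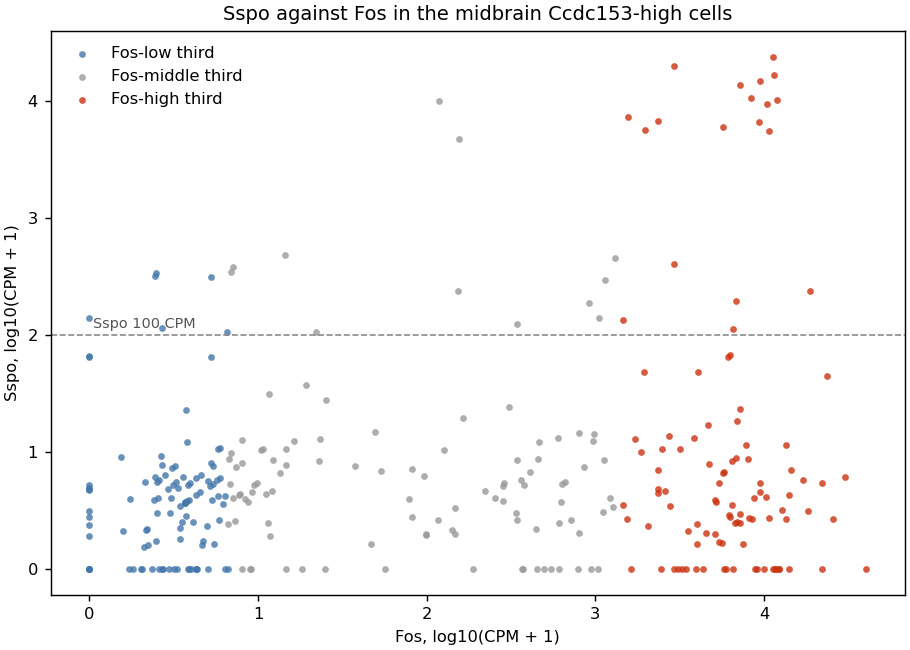
Sspo against Fos in each of the 317 midbrain Ccdc153-high cells, both as log10(CPM + 1); colour gives the group by Fos and the dashed line marks 100 CPM of Sspo. The 14 Fos-high cells at or above 1000 CPM of Sspo form a cloud of their own at the upper right. At that level of Sspo there are also 2 Fos-middle cells, at lower Fos, and 0 Fos-low cells.

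Of 9264 genes that could be compared (called tested below), those with at least 10 CPM over all members and a read in at least 10% of them, 482 were at least 2-fold higher in the Fos-high cells (5.2%) and 265 were at least 2-fold lower (2.86%). The median log2 ratio over all tested genes was 0.03. The filter was applied over all members, so a gene nearly absent from the Fos-low cells could be tested through its level in the other cells. The shares of gene lists given below are therefore a description and no test. A stricter count asked that the 2-fold difference remain without the cell holding most reads of the gene in each group, and that all 7 blocks of 96 consecutive wells, or all but 1, show the same sign. It left 247 higher genes (2.67%) and 88 lower genes (0.95%). In 205 of the 247 the Fos-middle cells lay between the other groups. Without the Sspo-carrying members 422 of 9200 tested genes were at least 2-fold higher (4.59%) and 313 were at least 2-fold lower (3.4%), and 159 of the 247 and 70 of the 88 were still at least 2-fold apart.

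The markers named with the split, Ier3 and Socs3, are shown first with the start of their genes. Ier3 encodes a small early response protein linked to cell survival under stress, and Socs3 an inhibitor of cytokine receptors that signal through JAK kinases and STAT3. Beside them are 3 other genes of the response with recognisable short motifs near the start: the antiproliferative gene Btg2, the MAP kinase phosphatase Dusp1, and Zfp36, whose protein destabilises mRNAs with AU-rich elements. Each window runs from 250 bases before to 50 bases after the start that RefSeq gives on GRCm38.p6, 5′ to 3′ on the strand of the gene. Capitals mark matches to TGACG and TGACGTCA (the short and full cyclic AMP response element that CREB and ATF proteins bind), to TTCNNNGAA (the STAT motif) and to the CArG box (the SRF motif), searched on both strands. TGACG is part of TGACGTCA.
Ier3, chr17:35821463-35821762, plus strand: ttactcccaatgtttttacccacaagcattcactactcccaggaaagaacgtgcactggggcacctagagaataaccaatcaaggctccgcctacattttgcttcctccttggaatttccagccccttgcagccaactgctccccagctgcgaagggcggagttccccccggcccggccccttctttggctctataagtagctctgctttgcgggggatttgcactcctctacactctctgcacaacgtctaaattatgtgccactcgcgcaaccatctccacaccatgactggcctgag
Socs3, chr11:117969317-117969616, minus strand: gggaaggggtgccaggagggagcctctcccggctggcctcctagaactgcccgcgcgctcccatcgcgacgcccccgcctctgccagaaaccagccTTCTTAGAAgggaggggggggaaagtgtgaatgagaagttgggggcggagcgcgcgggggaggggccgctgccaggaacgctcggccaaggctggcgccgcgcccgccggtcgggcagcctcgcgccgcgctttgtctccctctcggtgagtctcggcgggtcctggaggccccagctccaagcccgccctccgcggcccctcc
Btg2, chr1:134079106-134079405, minus strand: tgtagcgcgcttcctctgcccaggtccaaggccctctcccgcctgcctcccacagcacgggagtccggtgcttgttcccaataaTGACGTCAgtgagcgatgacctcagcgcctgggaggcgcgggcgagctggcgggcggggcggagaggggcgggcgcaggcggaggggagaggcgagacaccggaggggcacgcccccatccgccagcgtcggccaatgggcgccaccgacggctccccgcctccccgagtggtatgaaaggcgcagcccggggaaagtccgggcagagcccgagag
Dusp1, chr17:26508423-26508722, minus strand: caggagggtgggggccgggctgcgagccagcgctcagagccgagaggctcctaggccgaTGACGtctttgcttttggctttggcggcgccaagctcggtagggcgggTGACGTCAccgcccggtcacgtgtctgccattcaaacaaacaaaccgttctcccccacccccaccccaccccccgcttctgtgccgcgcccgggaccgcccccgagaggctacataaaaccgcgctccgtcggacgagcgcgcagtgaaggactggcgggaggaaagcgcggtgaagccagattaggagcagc
Zfp36, chr7:28379179-28379478, minus strand: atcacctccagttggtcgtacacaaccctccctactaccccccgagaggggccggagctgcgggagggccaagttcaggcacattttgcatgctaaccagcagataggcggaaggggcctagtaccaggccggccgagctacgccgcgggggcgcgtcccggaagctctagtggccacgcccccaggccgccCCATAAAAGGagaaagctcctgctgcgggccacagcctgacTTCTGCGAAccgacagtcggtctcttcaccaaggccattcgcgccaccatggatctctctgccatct

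The Socs3 window held 1 STAT motif, TTCTTAGAA, 154 bases before the start, at chr11:117969512-117969520. The Zfp36 window held another, TTCTGCGAA, 17 bases before the start, and the CArG box CCATAAAAGG 58 bases before it. Full TGACGTCA elements lay 166 bases before the start of Btg2 and 143 bases before that of Dusp1. The Ier3 window held no match to the motifs searched, which says only that these letters are not in this window. Windows were found for 10 of the early response genes named here, and the rest were not searched. A gene missing from the counts below therefore did not necessarily lack a motif. A gene was counted if any of its windows held the motif, whereas the percentages below are of single windows. A gene with several windows would have more chances to match, so the values are not directly comparable. TGACG was in 6 of the 10, against 20.8% of 32851 RefSeq promoter windows of the same length, and TGACGTCA in 3 of the 10 (Btg2, Dusp1 and Plk2), against 1.79%. The STAT motif was in 2 of the 10, against 8.30%, the CArG box in 1, against 1.63%, and the AP-1 motif TGANTCA in 0, against 7.81%. These are matches of letters and not measured binding.

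Ier3 was detected in only part of the cells of each group. In the Fos-high cells it ranged from 0 to 1489 CPM with a median of 0, and 30 of 105 cells were at 100 CPM or more. Of the Fos-middle cells 8 of 107 reached that level, and of the Fos-low cells 3 of 105, where the highest cell had 275 CPM. Most cells of every group thus had no reads of Ier3, and the groups differed in how many cells had any. Whether cells with 0 reads lacked the transcript was not tested. Pooled over all reads of a group, Ier3 stood at 98.9 CPM (Poisson 95% interval 96.8 to 101) in the Fos-high cells, 18.3 CPM in the Fos-middle cells and 2.92 CPM (2.58 to 3.29) in the Fos-low cells, a 33.8-fold difference and a log2 ratio of 5.08. The log2 ratio was 3.95 as the ratio of mean CPM per cell, 3.94 from the authors' normalised values and 5.80 among members with 2000 CPM or more of Ccdc153. It was higher in all 7 blocks, and the log2 ratio was 5.30 without the Sspo-carrying members. After every cell was thinned to 125424 reads, Ier3 was detected in 35.2% of Fos-high and 5.71% of Fos-low cells, close to the unthinned 36.2% and 5.71%.

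Socs3 had the same shape at a higher level. It ranged from 0 to 4112 CPM in the Fos-high cells with a median of 1.45 CPM, and 45 of 105 cells were at 100 CPM or more. The Fos-low cells had a median of 0 and a highest value of 233 CPM, with 7 of 105 cells at 100 CPM or more, and the Fos-middle cells had 11 of 107. The groups overlapped at 0 and separated in the upper part. Pooled Socs3 was 272 CPM (269 to 276) against 14.2 CPM (13.4 to 15.0), a 19.2-fold difference (log2 ratio 4.26, and 4.30 without the Sspo-carrying members), and it was higher in all 7 blocks. The log2 ratio of Socs3 was 3.40 in the second sequencing project alone.

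Ier3 and Socs3 were detected in partly different Fos-high cells. At 10 CPM or more, 25 of the 105 carried both, 12 carried Ier3 alone, 27 carried Socs3 alone and 41 carried neither. Most of the 14 Fos-high cells with 1000 CPM or more of Sspo carried neither. Among the Fos-low cells 0 carried both, 5 Ier3 alone, 11 Socs3 alone and 89 neither. Within the 105 Fos-high cells the Spearman correlation was 0.29 between the pair, and it was 0.15 between Ier3 and Fos and 0.24 between Socs3 and Fos. Socs3 went more closely with Zfp36, at 0.41, and Junb, at 0.33, than with Egr1, at 0.09. These correlations are weak, and they are over 105 cells of 1 sample, the 19 Sspo-carrying cells included. The 105 cells come from all 7 blocks of wells and differ in depth from 128619 to 2234766 reads.

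The AP-1 subunits divided into inducible and steady members. Of 7 tested subunits 4 were at least 2-fold higher in the Fos-high cells, Junb, Fosb, Jun and Atf3, and 0 were lower. The higher share was 57.1%, against 5.2% of all tested genes. The median log2 ratio was 3.71, and 3.00 without the Sspo-carrying members. Jund, Atf2 and Batf3 stood at log2 ratios of 0.68, 0.22 and 0.13. Fosl2 and Jdp2 were in the table but too low to be tested.

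Junb, a JUN family partner of FOS, had a median of 561 CPM in the Fos-high cells and ranged from 0 to 8694 CPM. In the Fos-low cells the median was 0 and the highest cell had 315 CPM, below the median of the Fos-high cells. Pooled levels were 963, 103 and 5.68 CPM from Fos-high to Fos-low, a log2 ratio of 7.41. Fosb, the closest relative of Fos, was sparser: its median was 49.6 CPM in the Fos-high cells and 0 in the Fos-low cells, where 1 cell of 263 CPM carried most of the reads. Pooled Fosb was 234 against 2.85 CPM, a log2 ratio of 6.36, and of 9.88 without the top cell of each group.

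Jun and Atf3 were not silent in the Fos-low cells. Jun had a median of 741 CPM in the Fos-high cells, 58.0 CPM in the Fos-middle cells and 1.46 CPM in the Fos-low cells, yet 32 of 105 Fos-low cells were at 100 CPM or more, up to 806 CPM. Pooled Jun was 1022 against 78.0 CPM, 13.1-fold. Atf3, a stress-induced partner of JUN, was at 795 CPM in the Fos-high cells, and at 55.1 and 60.8 CPM in the Fos-middle and Fos-low cells. It thus differed between Fos-high cells and the rest, and not along the lower range of Fos.

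Of 27 tested early response factors 15 were at least 2-fold higher in the Fos-high cells and 0 lower. The higher share was 55.6%, against 5.2% of all tested genes. The median log2 ratio of these factors was 1.18, with and without the Sspo-carrying members. Egr1, a zinc finger factor induced through SRF, showed the widest gap of these. It ranged from 0 to 12118 CPM in the Fos-high cells, with a median of 2191 CPM and 101 of 105 cells at 100 CPM or more. In the Fos-low cells the median was 0.93 CPM, the highest cell had 468 CPM and 3 cells reached 100 CPM. Pooled Egr1 was 2584, 94.5 and 8.67 CPM in the Fos-high, Fos-middle and Fos-low cells, a log2 ratio of 8.22 between the outer groups. Egr1 was also the gene most like Fos over all 317 cells, with a Spearman correlation of 0.84.

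Ier2 and Btg2 followed the same pattern with more cells at 0 CPM. Ier2, which encodes a small nuclear early response protein, had a median of 209 CPM in the Fos-high cells and 0 in the Fos-low cells, with highest cells of 7494 and 248 CPM. Its pooled levels were 701 and 5.52 CPM, a log2 ratio of 6.99. Btg2 had medians of 442 and 0 CPM, highest cells of 8675 and 228 CPM, and pooled levels of 1093 and 13.3 CPM, a log2 ratio of 6.36. For both genes the highest Fos-low cells lay within the range of the Fos-high cells.

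Other members had smaller or rarer differences. Ccn1, a secreted matrix protein gene driven by SRF and YAP, was at 851 against 48.9 CPM (log2 ratio 4.12), and its highest Fos-high cell had 14718 CPM. Nr4a1, an orphan nuclear receptor, was at 197 against 23.6 CPM (3.07), with 41 and 10 cells at 100 CPM or more. Klf6 and Klf2, zinc finger factors, had log2 ratios of 2.75 and 2.95, and Plk2, a polo-like kinase gene, 4.47. Id1 and Id3, targets of BMP signalling that encode inhibitors of basic helix-loop-helix factors, had log2 ratios of 4.03 and 3.14. Without the Sspo-carrying members these were 1.91 and 1.35, and Id1 was higher in 5 of the 7 blocks only. The untested members, among them Arc, Npas4, Egr2 and Klf4, did not meet the level or the share of cells needed.

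**Figure D2:**
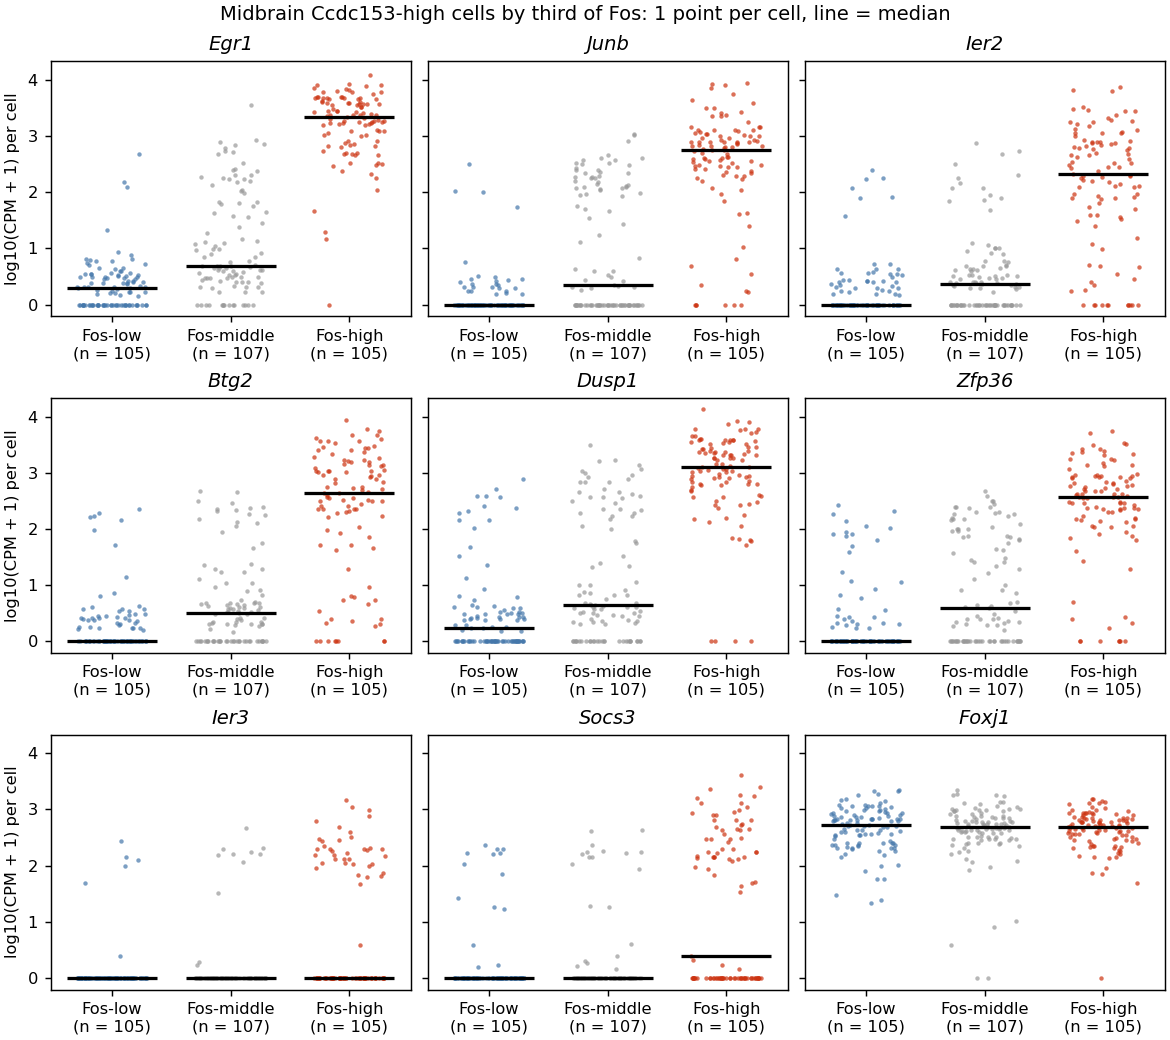
Level of 9 genes in each of the 317 midbrain Ccdc153-high cells, as log10(CPM + 1), with 1 point per cell and a line at the median, for 105 Fos-low, 107 Fos-middle and 105 Fos-high cells. For Egr1 the medians run from 0.93 to 2191 CPM, Ier3 keeps a median of 0 in every group, and Foxj1 overlaps throughout.

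Inhibitors of the response were higher together with its activators. Of 18 tested feedback inhibitors 8 were at least 2-fold higher and 0 lower, with a median log2 ratio of 0.85 (0.94 without the Sspo-carrying members). The higher share was 44.4%, against 5.2% of all tested genes. Dusp1 had a median of 1250 CPM in the Fos-high cells and 0.70 CPM in the Fos-low cells, where 12 of 105 cells reached 100 CPM and the highest had 776 CPM. Pooled Dusp1 was 1944, 214 and 38.7 CPM, a 50.2-fold difference between the outer groups. Zfp36 had medians of 374 and 0 CPM and pooled levels of 660 and 17.6 CPM, 37.5-fold. Beside Socs3 the list also held Nfkbiz, a nuclear modulator of NF-kB (log2 ratio 2.34), Gadd45g, a growth arrest gene (2.06), Ppp1r15a, which directs a phosphatase to eIF2 alpha (1.59), Dusp16 (1.36) and Tob2 (1.07). Socs1, Spred1 and Dusp14 stood at -0.21, -0.03 and -0.08, and Nfkbia, the NF-kB inhibitor, at 0.46.

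Receptors and kinases of the pathway around Socs3 were within 2-fold. Of 14 tested genes of gp130 and STAT3 signalling 3 were at least 2-fold higher, Socs3, Junb and Gfap (21.4%, against 5.2% of all tested genes), and 0 lower, with a median log2 ratio of 0.19. Without the Sspo-carrying members 4 of 14 were. The receptor genes Il6st and Lifr both stood at -0.20, the kinase genes Jak1 and Jak2 at 0.17 and 0.77, and Stat3 at 0.28. Pim3, a kinase gene, was just below 2-fold at 0.92. Gfap, the astrocyte filament gene, was at 60.5 CPM in the Fos-high cells, 150 CPM in the Fos-middle cells and 15.5 CPM in the Fos-low cells. It was higher in the Fos-high cells in 5 of 7 blocks, and so did not follow the order of Fos. Of 8 tested NF-kB pathway and chemokine genes 1 was at least 2-fold higher, Nfkbiz (12.5%, against 5.2% of all tested genes).

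Among stress genes, a few inducible members stood out of steady lists. Of 21 heat shock proteins 4 were at least 2-fold higher and 0 lower, with a median log2 ratio of 0.30. The higher share was 19.0%, against 5.2% of all tested genes. Hspa1a, the stress-inducible HSP70, had a median of 91.1 CPM in the Fos-high cells and 0 in the Fos-low cells, and pooled levels of 364 and 23.8 CPM, 15.3-fold. Dnajb1, its HSP40 partner, was already frequent in the Fos-low cells, where 41 of 105 cells reached 100 CPM, against 77 Fos-high cells, and its pooled levels were 816 and 105 CPM. Hspa1b and Hspb1 had log2 ratios of 2.70 and 1.82. Hspa1a and Hspa1b are near-identical copies, so how their reads were divided is uncertain. Hsp90aa1 and Hsf1 stood at -0.12 and -0.02.

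Of 16 genes of the unfolded protein and integrated stress responses 4 were at least 2-fold higher and 0 lower. The higher share was 25%, against 5.2% of all tested genes. The 4 were Ddit3, which encodes CHOP (log2 ratio 2.69), Ppp1r15a (1.59), Herpud1 (1.57) and Atf4 (1.49). The endoplasmic reticulum chaperone gene Hspa5 stood at 0.41. Without the Sspo-carrying members Herpud1 stood at 0.31, and Ddit3, Ppp1r15a and Atf4 at 1.84, 1.53 and 1.11.

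Many of these genes are also known from other studies as induced while tissue is dissociated. Of 54 tested genes of a list of that kind, compiled here from general knowledge and overlapping the lists above, 29 were at least 2-fold higher in the Fos-high cells and 0 lower (median log2 ratio 1.09). The higher share was 53.7%, against 5.2% of all tested genes. All cells here went through dissociation and sorting, and no undissociated sample was measured. The part of dissociation in the difference was not tested.

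**Figure D3:**
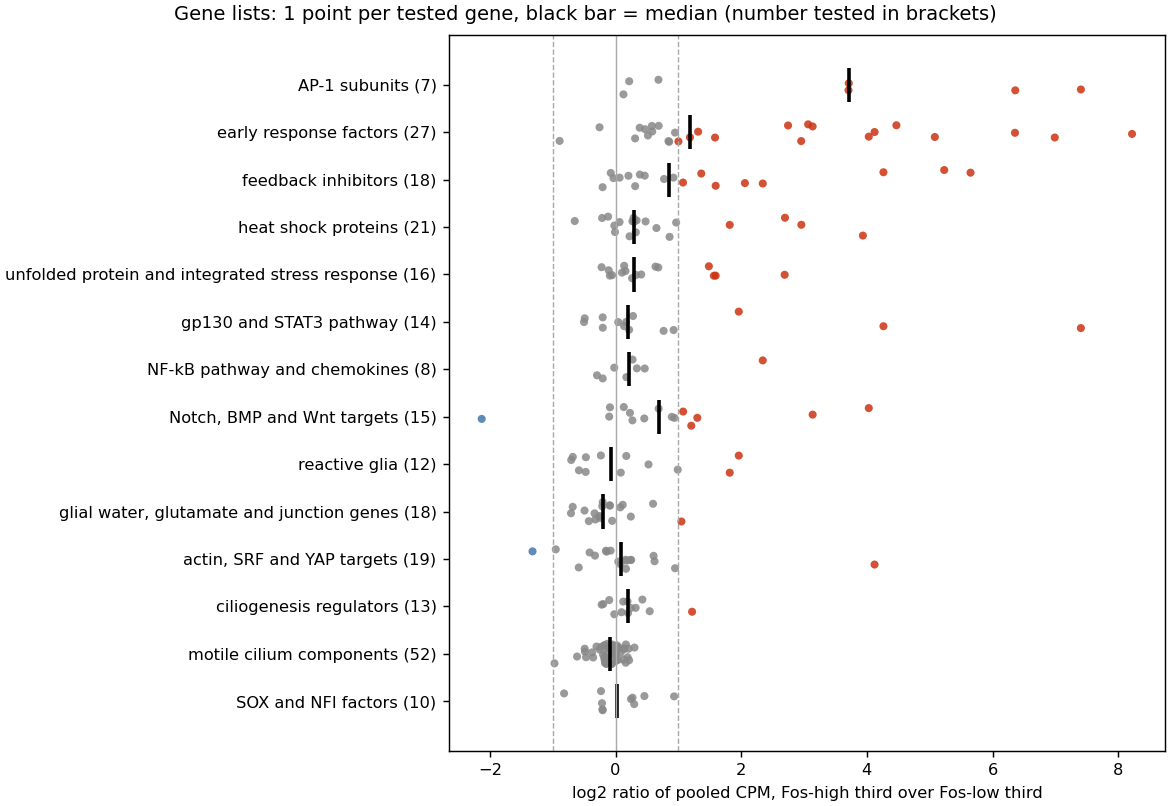
Log2 ratio of pooled CPM between Fos-high and Fos-low cells for the tested genes of 14 lists, with 1 point per gene, a black bar at the median of the list and dashed lines at a 2-fold difference; red points are at least 2-fold higher and blue points at least 2-fold lower. The medians are 3.71 for AP-1 subunits, 1.18 for early response factors and -0.10 for motile cilium components.

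The ciliary programme differed little. Of 52 tested components of motile cilia, such as the dynein, radial spoke and tektin genes, 0 were at least 2-fold higher and 0 lower. Their median log2 ratio was -0.10, and Dnah3, an axonemal dynein gene, was the lowest at -0.97. Of 13 regulators of ciliogenesis 1, the cyclin gene Ccno, was at least 2-fold higher, at 27.7 against 11.9 CPM and in 4 of 7 blocks. This share of 7.69% is near the 5.2% of all tested genes. The factors that the series is about were also close in both groups. Sox9 had a median of 1236 CPM in the Fos-high cells and 1153 CPM in the Fos-low cells, and Nfia, Nfib and Nfix had log2 ratios of -0.21, -0.20 and 0.30. Of 10 tested SOX and NFI genes 0 were at least 2-fold apart. Of all tested genes only 5.2% were higher and 2.86% lower, so this count does not set the 10 apart from other genes.

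In some other lists the share of higher genes was near the 5.2% of all tested genes. Of 18 genes of water transport, glutamate handling and junctions 1 was at least 2-fold higher (Aldh1l1, log2 ratio 1.05). Of 19 actin, SRF and YAP targets 1 was higher (Ccn1) and 1 lower (Lats2, a kinase gene of the Hippo pathway, -1.32). The share was larger among 12 genes of reactive glia, where 2 were higher (Gfap and Hspb1), which is 16.7%. The median log2 ratio of the 12 was -0.07. Notch, BMP and Wnt targets had a larger share, 33.3%. Of 15 of them 5 were higher, Id1, Id3, Bambi, Nkd1 and Axin2, and 1 lower, Nkd2. Their median log2 ratio was 0.69, and 0.20 without the Sspo-carrying members, when 4 were higher.

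Some of the widest gaps came with the Sspo-carrying members. Of the 20 genes with the highest log2 ratios under the stricter count, Mgarp, Wfdc2, Npsr1, Spp2, Spdef and Igfbp6 were seen at 100 CPM or more in 12 to 15 Fos-high cells each. Wfdc2, a secreted protease inhibitor gene, was at 184 CPM in the Fos-high cells and 0.44 CPM in the Fos-low cells, a log2 ratio of 8.71. Without the Sspo-carrying members it was at 0.55 and 0.46 CPM, a log2 ratio of 0.26. Npsr1, a neuropeptide receptor gene, went from 8.50 to 0.59, Spp2 from 6.35 to 0.58 and Mgarp from 9.08 to -0.46. Spdef, an ETS factor gene of secretory cells used here as a marker of the subcommissural organ, went from 6.16 to -2.62, and Igfbp6 from 6.14 to -2.43. Sspo itself, 1250 against 15.6 CPM, went to 5.51 against 4.88 CPM, which follows from leaving out the cells that carried it. Ttr, the transthyretin gene of the choroid plexus, was higher in all 7 blocks at 80.8 against 14.1 CPM, and its log2 ratio of 2.52 became 1.07. Of 3 tested choroid plexus markers it was the only 1 at least 2-fold higher, as Folr1 and Clic6 stood at -0.30 and -0.34. Summed choroid plexus markers were at 551 CPM in the Fos-high cells and 570 CPM in the Fos-low cells.

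Early response genes among the 20 remained more than 8-fold apart without those members. Egr1 went from a log2 ratio of 8.22 to 7.96, Junb from 7.41 to 7.27, Ier2 from 6.99 to 6.18 and Btg2 from 6.36 to 5.73. Dusp1 went from 5.65 to 5.37, Zfp36 from 5.23 to 5.01, Plk2 from 4.47 to 3.64, Ier3 from 5.08 to 5.30 and Fosb from 6.36 to 8.84. Outside the 20, Id1 and Id3 fell further, as given above. Thrsp, Pygm and Apod, also among the 20, lay between, at 5.63, 4.12 and 4.17, and Kctd14 was at 3.68 against 0.75 CPM. Each of these was at 100 CPM or more in 10 to 16 Fos-high cells.

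The 12 genes with the lowest log2 ratios under the stricter count were X4921507g05rik, Scn8a, Hps4, Stim2, Cacnb1, X4930458d05rik, Mt.ts2, Trim41, Scml4, Dusp26, Nkd2 and A930006k02rik. Apart from the mitochondrial Mt.ts2 all had a median of 0 CPM in both groups and were detected in 14 to 31 Fos-low cells. Scn8a, a sodium channel gene, was at 24.6 CPM in the Fos-low and 2.41 CPM in the Fos-high cells, 10.2-fold lower, and was detected in 22 and 7 cells. Dusp26, a phosphatase gene of another class of the DUSP family, was at 52.3 and 11.4 CPM, with 22 and 6 cells at 100 CPM or more. Nkd2, an inhibitor of Wnt signalling, was at 49.4 and 11.3 CPM and lower in all 7 blocks.

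Cell by cell, the early response was shared by most of the Fos-high cells. The 9 genes most like Fos over the 317 cells were Egr1 (0.84), Junb (0.77), Dusp1 (0.72), Zfp36 (0.71), Jun (0.71), Btg2 (0.69), Ier2 (0.64), Fosb (0.55) and Atf3 (0.48), by Spearman correlation of CPM. Counting these 9, a Fos-high cell had a median of 7 genes at 100 CPM or more, a Fos-middle cell 2 and a Fos-low cell 1. At least 5 of the 9 were at that level in 94 of 105 Fos-high cells, 11 of 107 Fos-middle cells and 0 of 105 Fos-low cells. None of the 9 was at that level in 0, 30 and 49 cells. The 9 were picked by their likeness to Fos, so the counts describe how fully single cells carried the response. Within the Fos-high cells, Egr1 correlated with Jun at 0.74, with Btg2 at 0.72, with Atf3 at 0.71, with Fosb at 0.64 and with Junb at 0.40. The Sspo-carrying cells are included in these values.

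**Figure D4:**
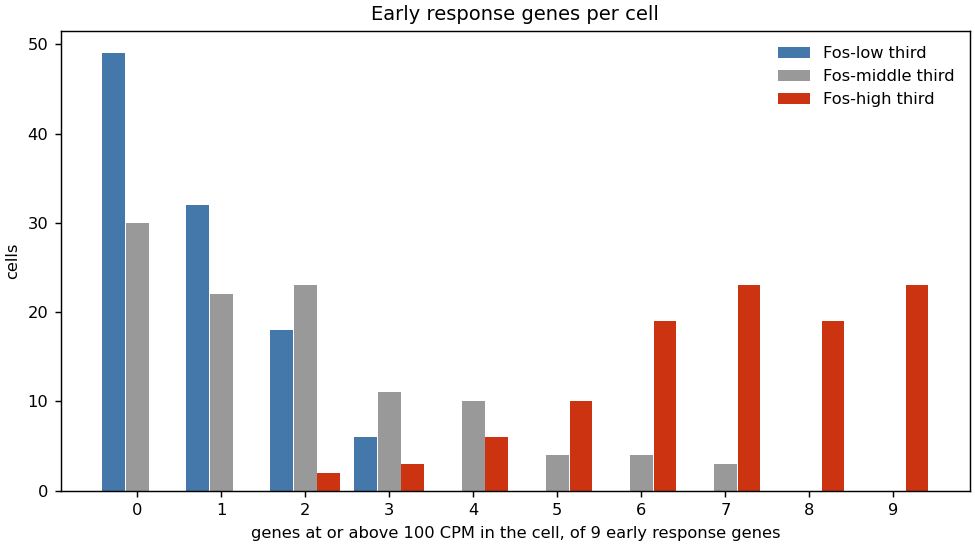
Number of cells, out of 105 Fos-low, 107 Fos-middle and 105 Fos-high midbrain cells, by how many of 9 early response genes stood at or above 100 CPM in the cell. The Fos-high cells peak at 7 to 9 genes, while 49 Fos-low cells had none and 0 had 5 or more.

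The Fos-high cells were spread over the wells. Each of the 7 blocks of wells held 10 to 18 of them and 7 to 23 Fos-low cells, and median Fos per block ran from 8.24 to 659 CPM. Sex-linked genes differed between blocks, so the blocks do not hold the same mix of animals. Y-linked transcripts reached 10 CPM in 30 Fos-high, 35 Fos-middle and 35 Fos-low cells, and Xist in 26, 28 and 21. Both did so in 0 Fos-high, 2 Fos-middle and 1 Fos-low cells. Reads of mitochondrial genes made up a median of 4.42%, 5.50% and 5.58% of a cell in the Fos-high, Fos-middle and Fos-low cells. Their part in the results was not tested.

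The same split was then made in the other samples of the line, whose cells the midbrain ranking did not use. They were 239 Ccdc153-high cells of the lateral ventricle, 240 of the third ventricle and 99 of the spinal cord, in groups of 79, 80 and 33. At least 2-fold higher in their own Fos-high cells were 3.03%, 3.73% and 12.6% of tested genes, the last from the fewest cells, and at least 2-fold lower were 2.79%, 3.68% and 11.4%. Of 7840 genes tested in all 4 samples, 16 (0.204%) were at least 2-fold higher in all 3 other samples. Of these 16, 15 were among the midbrain genes of the stricter count: Atf3, Btg2, Ccn1, Dusp1, Egr1, Fosb, Hspa1a, Ier2, Ier3, Jun, Junb, Nfkbiz, Nr4a1, Socs3 and Zfp36. The exception was Vezt, a cell junction gene. Among the same 7840 genes, 5 (0.0638%) were at least 2-fold lower in all 3. The 15 higher genes are 93.8% of the 16 and 9.74% of the 154 midbrain genes of the stricter count that were tested in all 4 samples.

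Ier3 and Socs3 were among them. Ier3 was at 53.9 against 6.90 CPM in the lateral ventricle (log2 ratio 2.97) and at 72.2 against 8.58 CPM in the third ventricle (3.07). Both ratios were below the 5.08 of the midbrain. In the spinal cord it was at 82.0 CPM in the Fos-high cells and had 1 read in the Fos-low cells, a wider gap than in the midbrain that rests on the near absence of reads in 33 cells. Socs3 was at 169 against 15.8 CPM in the lateral ventricle, at 238 against 35.0 CPM in the third ventricle and at 1148 against 78.5 CPM in spinal cord cells, log2 ratios of 3.41, 2.76 and 3.87. Whether the ratios differ between places was not tested, since each place is 1 sample.

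Other genes of the midbrain list were not shared in the same way. Dnajb1 had log2 ratios of 0.55 in cells of the lateral ventricle, 1.14 in cells of the third ventricle and 2.07 in cells of the spinal cord, and Hspb1 of -0.30, -0.36 and -0.48 in the same order. Plk2 stood at 0.03 in the lateral ventricle and Id1 at 0.21. Foxj1 and Sox9 were within 2-fold in all 3.

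The 230 midbrain cells below the Ccdc153 threshold gave a contrast from the same tissue. Their median Fos was 9492 CPM, so even their Fos-low cells were not silent: Egr1 was at 5511 CPM in the highest 76 cells by Fos and at 1373 CPM in the lowest 76. Of their tested genes 7.29% were at least 2-fold higher with Fos and 8.46% at least 2-fold lower. Socs3 had a log2 ratio of 1.83 there, and Junb of 2.29. Ier3 went the other way, at 9.42 CPM in the Fos-high and 28.3 CPM in the Fos-low cells, a log2 ratio of -1.59.

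**Figure D5:**
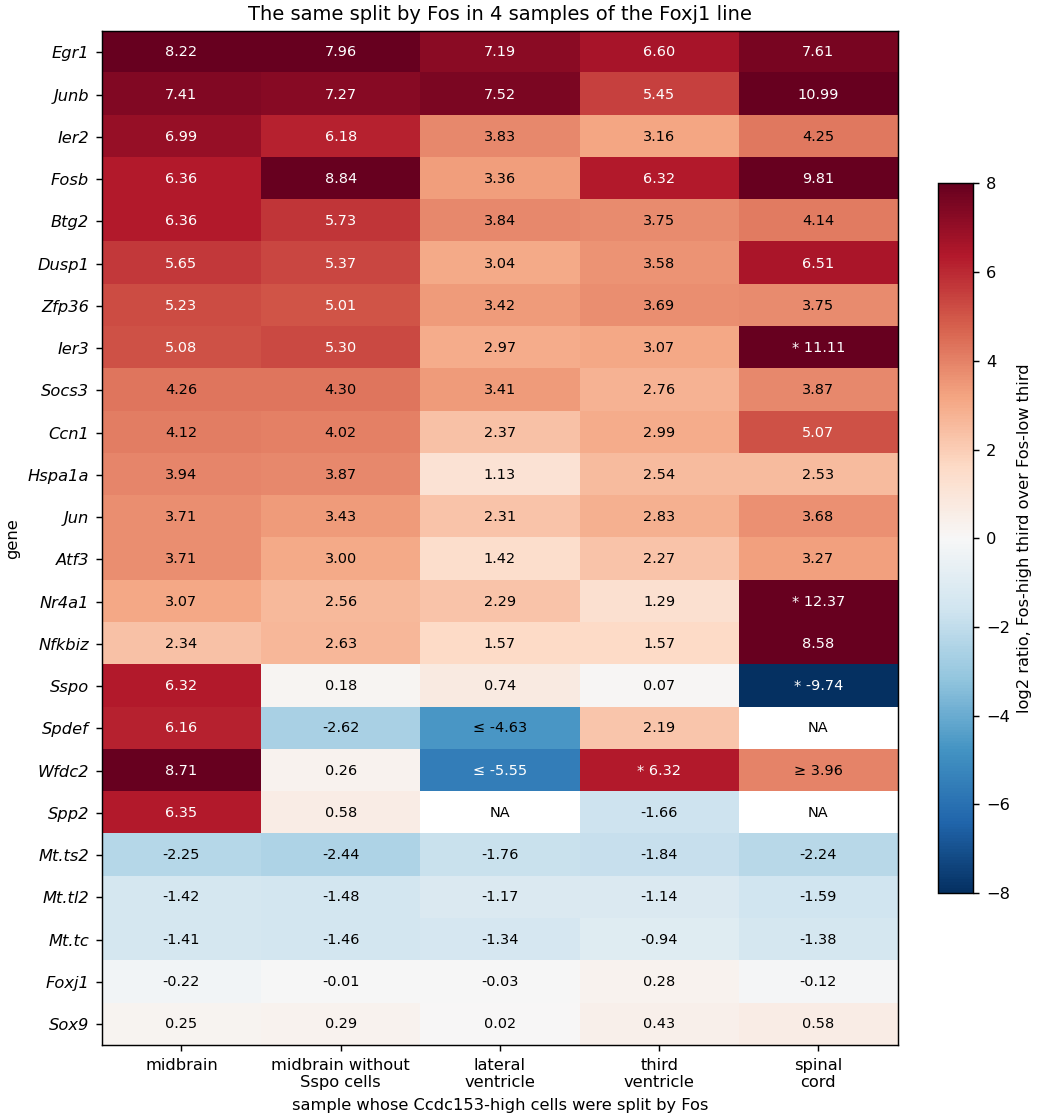
Log2 ratio of pooled CPM between Fos-high and Fos-low Ccdc153-high cells for 24 genes in the midbrain, in the midbrain without Sspo-carrying members, and in 3 other samples; NA marks genes at or under 3 reads in both groups, an asterisk a group with 1 to 3 reads, and the signs for at least and at most a group with 0 reads counted as 3. The upper 15 genes were picked as at least 2-fold higher in the midbrain and in all 3 other samples, so they are above 1 in those columns by choice. They are also above 1 without the Sspo-carrying members. Wfdc2, not picked in that way, is at 8.71 in the midbrain and 0.26 without the Sspo-carrying members.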

How the data were processed

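Single cells were sorted into 96-well plates and made into Smart-seq2 libraries, per the labels' protocols. The authors deposited raw counts of reads, a row per gene and a column per cell, and a second deposited table of log2 values scaled by cell, which served only as an alternative. The submitters' processing notes name STAR 2.3.1o, Seurat 3 and mm10. How reads were counted, with which annotation and with or without strand, is not given in the sources used here, so antisense overlaps cannot be separated.

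The prefix of a column name gave its sample, and 0 columns remained unassigned. From anatomy and the titles, Tanycytes was read as the third ventricle and Forebrain as the lateral ventricle. Cell numbers were taken to follow the well order of the titles. On that reading 5 of 7 midbrain blocks of 96, the first 480 wells, formed the first sequencing project.

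For each group, the counts of its cells were added and divided by their added totals, giving CPM. A gene with 0 reads in a group was given 3 reads there. Intervals are exact 95% Poisson intervals on reads or Clopper-Pearson intervals on cells, and cover counting error only. The Poisson intervals leave out the spread between cells, and both kinds leave out that between animals. Without molecular identifiers several reads can come from 1 molecule, so reads are not independent counts. Python 3.11.15, numpy 2.4.6, pandas 2.3.3, scipy 1.17.1 and matplotlib 3.10.9 were used, and the ratios were tested on simulated data. No doublet caller was run, since wells were sorted to hold 1 cell. Whether some wells held more than 1 cell was not tested.

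Genes were named by a rule: Ier3 and Socs3; the 20 highest and 12 lowest log2 ratios under the stricter count; list members at least 2-fold apart; and the 10 genes most like Fos by Spearman correlation. One result under this rule is not reported here. Other genes named for context were picked after their values were seen. The members and lists were chosen with earlier results of these data known. Gene and promoter coordinates are on GRCm38, the assembly that mm10 denotes. The Nkx2-2 line sample was not analysed here beyond the count of cells.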

Additional observations from a re-analysis of the deposited data

How the results depend on the processing

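Across 14 alternatives and the omission of each of 7 blocks of wells in turn, 170 of 189 recomputed values stayed close to those reported, 19 moved and 0 reversed. Close means within 1.5 times for counts and within 1 SD of the values of single blocks for log2 ratios. That SD was 2.90 for Ier3 and 4.02 for Socs3, so for them the limit is wide, and 1.26, 0.49, 0.57, 0.28 and 0.13 for AP-1 subunits, early response factors, feedback inhibitors, heat shock proteins and motile cilium components. The count of genes at least 2-fold higher was 62 when at least 50 CPM and a read in 25% of members were asked for, 2492 with no filter, 811 with Ccdc153 at 500 CPM or more, 309 between the upper and lower 1/2 of the ranking, 960 between its top and bottom 1/6 and 1445 in the second sequencing project alone. The count lower was 22, 1536, 112 and 686 under the same filters and with 1/2 and 1/6, 404 in the first project and 992 in the second. The AP-1 median was 5.04 with the 50 CPM filter. The early response median was 2.91 with that filter, 1.91 with Ccdc153 at 500 CPM, 2.96 between the top and bottom 1/6 and 0.52 in the second project, which also gave 1.70 for feedback inhibitors and 0.62 for heat shock proteins. Filters test fewer or more genes and the projects and the 1/6 groups hold fewer cells by construction; other causes were not tested.

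The omission of single blocks gave 513 to 582 higher and 313 to 368 lower genes, medians of 3.35 to 3.91 for AP-1 subunits, 1.04 to 1.45 for early response factors, 0.65 to 1.02 for feedback inhibitors, 0.27 to 0.35 for heat shock proteins and -0.10 to -0.03 for motile cilium components, and log2 ratios of 4.67 to 5.82 for Ier3 and 3.78 to 4.46 for Socs3. Over the 14 alternatives Ier3 ran from 3.94 to 5.80 and Socs3 from 3.40 to 5.13. No paired analysis was possible because these values come from no test. Ranking the cells by Fos within each block of wells gave 501 higher and 251 lower genes, and log2 ratios of 5.28 for Ier3 and 4.39 for Socs3. The labels do not tie wells to animals, so animals cannot be told apart.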

Other observations

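Mt.ts2 and Mt.tl2, a pair of mitochondrial transfer RNA genes picked after their values were seen, were at least 2-fold lower with Fos in all 4 samples. Of 16 rows of mitochondrial transfer RNA genes 13 were tested in the midbrain cells, 5 were at least 2-fold lower in the Fos-high cells, 0 were higher, and 11 lay below 0 (median log2 ratio -0.73). Of all tested genes 2.86% were at least 2-fold lower. Mt.ts2, a serine transfer RNA, had a median of 1.78 CPM in the Fos-high cells, 9.68 CPM in the Fos-middle cells and 18.6 CPM in the Fos-low cells, and its Spearman correlation with Fos over the 317 cells was -0.51. Its log2 ratio was -2.25, lower in all 7 blocks, and -2.44 without the Sspo-carrying members. It was -1.76 in cells of the lateral ventricle, -1.84 in cells of the third ventricle and -2.24 in cells of the spinal cord. Mt.tl2, a leucine transfer RNA, stood at -1.42 in the midbrain and at -1.17, -1.14 and -1.59 in the other samples. The 9 other mitochondrial rows ran from -0.50 to -0.20 in the midbrain. Of 7840 genes tested in all 4 samples, 5 (0.0638%) were at least 2-fold lower in all 3 other samples, Mt.ts2, Mt.tl2, Ccz1, Zfp105 and Zfp938, and of these Mt.ts2 and Mt.tl2 were also among the midbrain genes of the stricter count. The rows of Mt.ts2 and Mt.tl2 abut on the mitochondrial genome, at M:11613-11671 and M:11671-11741, and how reads over both were counted is not given in the sources used here.

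Low but nonzero values of early genes were common in cells without a clear signal. In the Fos-low cells Egr1 had a read in 64 of 105 cells while 3 reached 100 CPM, and Dusp1 in 56 while 12 did. After thinning to 125424 reads, Egr1 was detected in 16.2% of these cells, against 61.0% at full depth. Ier3 had a read in 6 of the 105 cells, of which 3 reached 100 CPM.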
